A study of Mus musculus with 9 samples.

Results

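The 10 serotonin receptor genes Htr1a, Htr1b, Htr1f, Htr2a, Htr2c, Htr3a, Htr4, Htr5a, Htr6 and Htr7 were followed in RNA of the mouse hippocampus. They were chosen by name and not by their values, and they were 10 of the 14 mouse serotonin receptor genes examined and of the 54532 genes listed. The protocol names C57BL/6 mice aged 6 to 8 weeks at purchase for all groups, although the strain labels of the Bet+HMD replicates read C57BL/6, C57BL/7 and C57BL/8. Con is labelled WT, and no genetic change is named for the other groups. Con mice were kept on standard food for 8 weeks. HMD mice were fed a diet high in methionine for 8 weeks, and Bet+HMD mice had that diet for 8 weeks and then drank water with betaine at 2.5% (w/v) for 2 weeks. Whether the methionine diet went on during the betaine weeks is not clear from the labels, and no group received betaine alone. With these 2 weeks added after the 8, any difference in age at sampling cannot be told apart from betaine. Each group held 3 samples, and nothing states that they were pooled.

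Serotonin reaches the hippocampus in axons from the raphe nuclei of the brainstem and acts there on receptors of several classes. Htr1a, Htr1b, Htr1f and Htr5a encode receptors coupled to Gi/o proteins, which lower cyclic AMP and, through potassium channels, quieten neurons. Htr2a and Htr2c encode receptors coupled to Gq, which activate phospholipase C. Htr4, Htr6 and Htr7 encode receptors coupled to Gs, which raise cyclic AMP. Htr3a encodes the obligatory subunit of the only serotonin receptor that is an ion channel, found in the forebrain mainly on a set of GABAergic interneurons.

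Expression was given as FPKM, in which fragments are divided by the length of the gene and by the size of the library, so levels of different genes can be compared. An earlier table held Con and HMD, and a later table held the same 6 samples again with Bet+HMD. Reads assigned to genes numbered 16031464 to 18566712 in a library, and the receptors other than Htr1f had 56 to 2813 reads per library. The Bet+HMD libraries appear only in the later table and listed more genes above 0 (25315 to 25663) than the other libraries of that table (20816 to 23272), so betaine and this set of libraries cannot be told apart. Xist was at most 0.0449 FPKM and Ddx3y at least 12.7 FPKM in all 9 samples, as in male mice, which the labels name, whereas the study's methods describe females. The 12 hippocampus markers were all measured. In the later table they summed to 429 to 503 FPKM in Con, 395 to 482 FPKM in HMD and 389 to 402 FPKM in Bet+HMD. The Bet+HMD sums thus lay below all Con sums. The replicates carry no statement of separate cages, so p-values measure the spread between these samples.

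In the tables, on GRCm38, Htr1a lay on chromosome 13 (105443639 to 105448122, plus strand) as a single exon. Htr2a lay on chromosome 14 (74640840 to 74709494, plus strand), Htr2c on X (146962513 to 147197277, plus strand) and Htr5a on chromosome 5 (27842149 to 27855088, plus strand). Htr3a lay on chromosome 9 (48899213 to 48911099, minus strand) and Htr7 on chromosome 19 (35958734 to 36057507, minus strand). Htr1b, on chromosome 9 (81628291 to 81633828, minus strand), shared 852 exon bases with the antisense gene D430036J16Rik, and since the use of strand in counting is not stated, its values are uncertain. Htr1f lay on chromosome 16 (64924729 to 65105854, minus strand) and Htr6 on chromosome 4 (139061108 to 139075570, minus strand).

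Htr2a, Htr2c and Htr7 were lower in Bet+HMD against HMD, and Htr5a was not called. For these receptors the bases that precede the gene start, by RefSeq or the tables, whichever comes first, are shown. For Htr5a this is the RefSeq start, upstream of that in the tables. These bases are shown because the start regions differed in CpG content. They come from RefSeq on GRCm38.p6, read 5′ to 3′ on the strand of the gene, with each CpG in capitals. The Htr2a stretch is chr14:74640624-74640839 on the plus strand, that of Htr2c is chrX:146962263-146962512 on the plus strand, that of Htr7 is chr19:36057508-36057610 on the minus strand and that of Htr5a is chr5:27841697-27841946 on the plus strand.
Htr2a: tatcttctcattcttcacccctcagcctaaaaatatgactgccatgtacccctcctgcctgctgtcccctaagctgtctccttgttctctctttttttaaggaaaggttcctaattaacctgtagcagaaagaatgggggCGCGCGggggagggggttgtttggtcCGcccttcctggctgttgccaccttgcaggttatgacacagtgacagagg
Htr2c: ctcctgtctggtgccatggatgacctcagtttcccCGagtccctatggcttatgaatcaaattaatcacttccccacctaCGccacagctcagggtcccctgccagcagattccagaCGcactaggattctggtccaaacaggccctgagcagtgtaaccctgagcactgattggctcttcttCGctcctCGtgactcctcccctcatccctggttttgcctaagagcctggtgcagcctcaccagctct
Htr7: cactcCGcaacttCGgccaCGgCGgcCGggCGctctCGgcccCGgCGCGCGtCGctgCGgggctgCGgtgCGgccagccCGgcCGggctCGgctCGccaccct
Htr5a: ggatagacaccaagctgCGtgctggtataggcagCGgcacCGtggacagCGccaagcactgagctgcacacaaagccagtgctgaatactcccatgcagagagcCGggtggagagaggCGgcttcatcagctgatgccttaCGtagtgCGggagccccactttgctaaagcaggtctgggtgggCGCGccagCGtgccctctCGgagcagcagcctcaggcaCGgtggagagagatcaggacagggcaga
Htr7 held 46 CpG in its 300-base window around the RefSeq start, more than 98.4% of the 32851 windows of all genes, whose median was 7. The Htr5a window held 14, that of Htr2a 6 and that of Htr2c 5. The windows of Htr1a, Htr1b and Htr1f held 7, 11 and 13, and the 2 of Htr6 held 29 and 10. Windows were examined for 8 of the 10 receptors, Htr3a and Htr4 not among them. Of the 3 receptors lower in Bet+HMD against HMD that had a window, Htr7 lay above and Htr2a and Htr2c below the median of all windows. Htr1a, called lower only against Con, lay at that median. Methylation was not measured here. Of 4 motifs searched on both strands, the GC box (GGGCGG, in 35.7% of all windows) matched in Htr1a, Htr1f, Htr2a and in 1 of the 2 windows of Htr6. The CCAAT box (CCAAT, 37.4%) matched in Htr1b and Htr2c. The TATA box (TATAAA, 13.6%) and the cAMP response element (TGACGTCA, 1.79%) matched in none of the 9 windows of these 8 receptors, which says only that these letters are not there.

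In Con hippocampus, Htr2c and Htr1a were the most abundant receptor mRNAs. Htr2c averaged 11.5 ± 3.91 FPKM (SD, n = 3) and Htr1a 10.4 ± 0.522 FPKM, and their ranges overlapped. Htr3a (5.45 ± 1.34 FPKM), Htr2a (4.13 ± 0.687 FPKM), Htr4 (3.87 ± 0.407 FPKM) and Htr7 (3.50 ± 0.0727 FPKM) formed a middle group in which each overlapped its neighbour in the order. Below them came Htr5a (2.75 ± 0.465 FPKM), separate from Htr7 above and Htr6 below. Htr6 (1.88 ± 0.359 FPKM) and Htr1b (1.86 ± 0.378 FPKM) overlapped, and Htr1f was lowest at 0.774 ± 0.155 FPKM. In HMD the same pair led, and Htr2a (5.55 ± 1.08 FPKM) came next, overlapping Htr3a (4.75 ± 0.365 FPKM). In Bet+HMD the order was different at the top. Htr1a (8.63 ± 0.246 FPKM) lay above Htr2c (7.37 ± 0.454 FPKM) with no overlap, Htr5a (3.26 ± 0.282 FPKM) followed, and Htr4 (1.92 ± 0.0882 FPKM) was next to last.

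**Figure D1:**
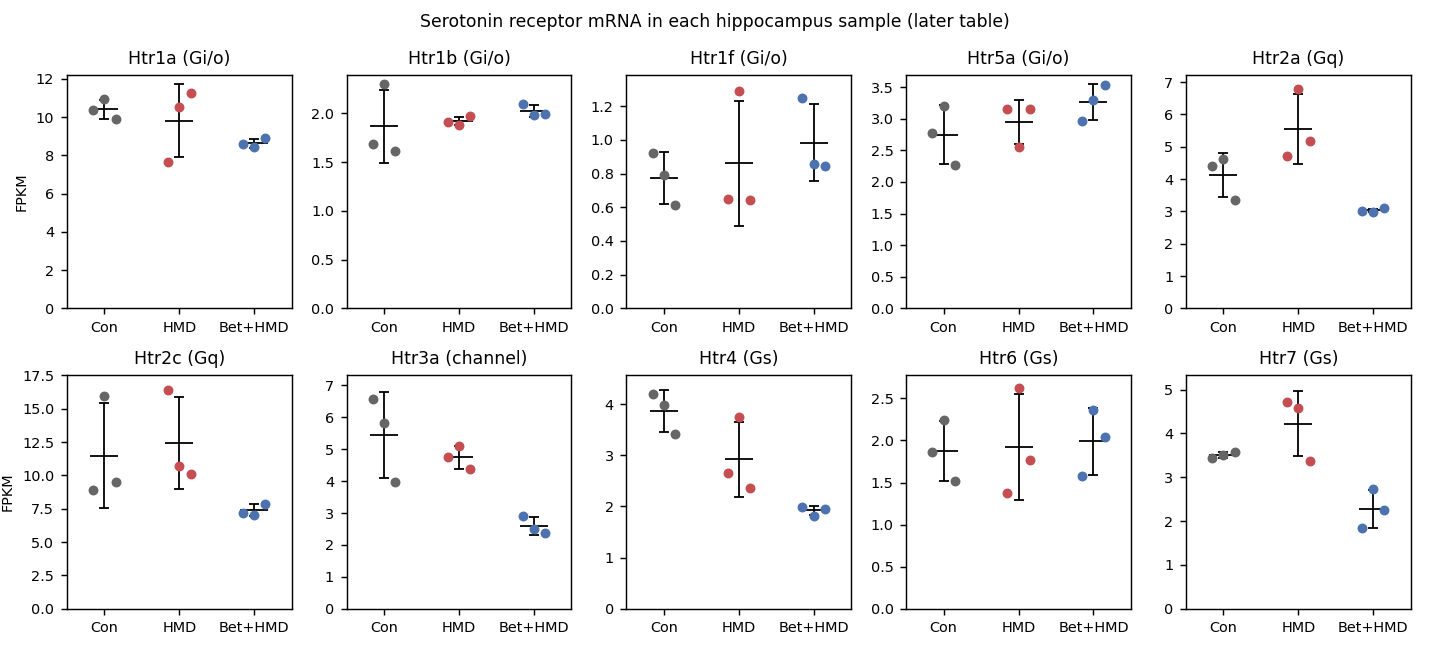
FPKM of the 10 receptors in each sample of the later table, with Con, HMD and Bet+HMD side by side, 1 point per sample and each axis starting at 0. The black bars give the mean and SD of 3 samples. The Bet+HMD points of Htr2a, Htr2c, Htr3a, Htr4 and Htr7 lie below all points of both other groups, and those of Htr1b, Htr5a and Htr6 lie among them or above.

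The first comparison asks what the methionine diet did to the receptors. No receptor passed the test. Of the 9 receptors that passed the expression filter of a mean of 1 FPKM, 0 had an adjusted p under 0.05 by limma, beside 0.0% of the 12989 genes tested. At an unadjusted p under 0.05 the count was 0 of 9, beside 4.56% of all genes, and limma voom on recovered reads also called 0. The median log2 fold change of the 9 was 0.069, beside -0.0038 for all genes.

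Htr2a, the receptor through which classical hallucinogens act, gave 4.31, 4.64 and 3.25 FPKM in Con and 4.64, 6.63 and 5.11 FPKM in HMD in the earlier table. It was the only 1 of the 9 whose groups did not overlap, beside 9.37% of all genes, but the lowest HMD sample all but touched the highest Con sample. Its log2 fold change was 0.35 (95% CI -0.03 to 0.72, limma adjusted p = 0.980). Htr4, whose agonists raise excitability of hippocampal pyramidal cells, gave 4.12, 3.89 and 3.34 FPKM in Con and 2.59, 3.63 and 2.31 FPKM in HMD. HMD replicate 2 lay above Con replicate 3, so the groups overlapped, and the log2 fold change was -0.33 (95% CI -0.69 to 0.03, adjusted p = 0.980). For the others the log2 fold changes ran from -0.15 for Htr3a to 0.17 for Htr7, with every interval covering 0. The widest interval was that of Htr2c, from -0.47 to 0.71, which leaves room for a change in either direction. The interval is not a limit of detection. The smallest adjusted p by limma over all 12989 genes was 0.124. Htr1f did not pass the filter, and its difference had an exact two-sided permutation p of 0.8, where 3 samples against 3 cannot go below 0.1.

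**Figure D2:**
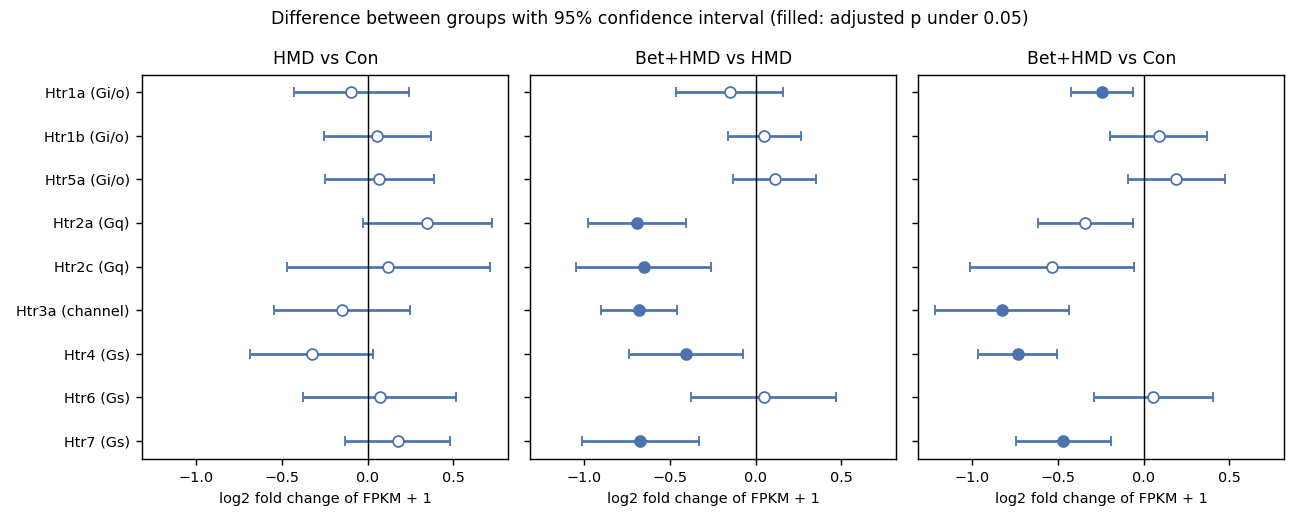
Log2 fold change of FPKM + 1 with its 95% confidence interval for the 9 receptors that passed the filter, in HMD against Con (earlier table) and in Bet+HMD against HMD and against Con (later table). Filled points have an adjusted p under 0.05 by limma. All intervals of HMD against Con cross 0, whereas Htr3a, Htr4 and Htr7 are filled on the negative side in both comparisons with Bet+HMD.

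The second comparison asks how the receptors stood in mice given betaine after the diet, against mice on the diet alone. In all, 5 receptors of 3 classes, Htr2a, Htr2c, Htr3a, Htr4 and Htr7, were lower in Bet+HMD, and none was higher. This was 5 of 9 tested, beside 48.3% of 13672 genes called in either direction, 25.5% called lower and 22.8% called higher. The groups did not overlap for 6 of 9, beside 60.1% of all genes, and 5 of these were lower, beside 31.8%. The median log2 fold change of the 9 was -0.41, beside -0.025 for all genes tested. In a bulk sample, fewer cells of a type and less RNA per cell cannot be told apart. Without HMD replicate 1, which stood apart in markers of neighbouring tissue, the count was 5 as well, with Htr1a called in place of Htr4. It was 3 without Bet+HMD replicate 1 or without Bet+HMD replicate 2.

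Among the Gq-coupled receptors, Htr2a stood at 4.72, 6.77 and 5.16 FPKM in HMD and at 3.01, 2.99 and 3.09 FPKM in Bet+HMD. The 3 betaine samples lay close together and all below the HMD samples, and the mean fell by 45.5% (log2 fold change -0.69, SE 0.12, limma adjusted p = 0.00337). Htr2c, a receptor whose mRNA is edited and which the choroid plexus expresses strongly, stood at 16.4, 10.7 and 10.1 FPKM in HMD and at 7.19, 7.04 and 7.89 FPKM in Bet+HMD. All 3 betaine samples were below the lowest HMD sample, and the mean fell by 40.7% (log2 fold change -0.65, SE 0.17, adjusted p = 0.0157). HMD replicate 1 carried the highest Htr2c value, and without it the log2 fold change was -0.45 with an adjusted p of 0.00920. The call was lost without Bet+HMD replicate 1 (adjusted p = 0.0513) or replicate 2 (adjusted p = 0.0549).

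The ion channel subunit Htr3a stood at 4.75, 5.11 and 4.38 FPKM in HMD and at 2.90, 2.50 and 2.37 FPKM in Bet+HMD. The groups were well apart, the mean fell by 45.4% (log2 fold change -0.68, SE 0.10, adjusted p = 0.00124), and the call held under all 11 alternatives and with each of the 6 samples left out. Htr3b, the gene for the partner subunit, was listed at 0 in 8 of the 9 samples.

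Of the Gs-coupled receptors, Htr7, a receptor involved in hippocampal excitability and circadian timing, stood at 4.72, 4.57 and 3.38 FPKM in HMD and at 1.85, 2.73 and 2.25 FPKM in Bet+HMD. The groups did not overlap, and the mean fell by 46.2% (log2 fold change -0.67, SE 0.14, adjusted p = 0.00782). Htr4 stood at 2.64, 3.76 and 2.35 FPKM in HMD and at 1.99, 1.82 and 1.95 FPKM in Bet+HMD. Its groups did not overlap, and the mean fell by 34.2% (log2 fold change -0.41, SE 0.14, adjusted p = 0.0476), close to the threshold. The Htr4 call was lost on the TPM scale (0.146), with median centring (0.0580), without a filter (0.109) and with a replicate block (0.0731). It was also lost without Bet+HMD replicate 1 (0.101), 2 (0.130) or 3 (0.107) and without HMD replicate 1 (0.0724) or 2 (0.0658), all given as adjusted p. Htr6, found largely in the brain and a target of cognition-directed drugs, stood at 1.38, 2.62 and 1.77 FPKM in HMD and at 1.57, 2.37 and 2.04 FPKM in Bet+HMD. Its groups overlapped, with a log2 fold change of 0.05 (95% CI -0.38 to 0.47) that was negative under quantile normalization (-0.17) and without HMD replicate 1 (-0.091) or Bet+HMD replicate 2 (-0.042).

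The Gi/o-coupled receptors did not show a call. Htr1a, the main inhibitory serotonin receptor of hippocampal pyramidal cells, stood at 7.65, 10.5 and 11.3 FPKM in HMD and at 8.58, 8.42 and 8.90 FPKM in Bet+HMD. The betaine samples lay within the range of HMD, whose replicate 1 was lowest, and the log2 fold change was -0.15 (95% CI -0.46 to 0.16, adjusted p = 0.377). It was -0.31 and called without HMD replicate 1 (adjusted p = 0.0242), and 0.032 on the TPM scale. Htr1b, a presynaptic receptor that limits transmitter release, had a log2 fold change of 0.05 (95% CI -0.16 to 0.26), and Htr5a had 0.11 (95% CI -0.13 to 0.35). Both were negative under quantile normalization, at -0.16 and -0.034. Htr1f, below the filter, had an exact permutation p of 0.6.

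The last comparison sets Bet+HMD against Con, and shares the Bet+HMD samples with the second. Htr3a, Htr4, Htr7 and Htr1a were lower, and none was higher, so 4 of 9 were called beside 39.7% of 13643 genes in either direction, 20.4% lower and 19.4% higher. The groups did not overlap for 6 of 9, beside 55.1% of all genes, and all 6 were lower, beside 29.0%. The median log2 fold change was -0.34 beside -0.039. On the TPM scale 3 were called, of which Htr5a was higher (log2 fold change 0.44, adjusted p = 0.0433). The count was 2 without Bet+HMD replicate 1 or without Bet+HMD replicate 3.

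Htr4 stood at 4.20, 3.99 and 3.41 FPKM in Con, above every Bet+HMD sample. Its mean fell by 50.4% (log2 fold change -0.73, SE 0.10, adjusted p = 0.00183), and the call held under all 11 alternatives and with each sample left out. Htr3a stood at 6.56, 5.84 and 3.96 FPKM in Con, where replicate 3 was the nearest to the betaine samples. Its mean fell by 52.5% (log2 fold change -0.83, SE 0.16, adjusted p = 0.00836), and this call held in the same way.

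Htr7 was tight in Con at 3.43, 3.50 and 3.58 FPKM, and no Bet+HMD sample reached that range. Its mean fell by 35.1% (log2 fold change -0.47, SE 0.12, adjusted p = 0.0186). The call was lost on the TPM scale (0.0925) and without Bet+HMD replicate 1 (0.0632) or 3 (0.0655). Htr1a stood at 10.4, 10.9 and 9.90 FPKM in Con, above every Bet+HMD sample, and its mean fell by 17.0% (log2 fold change -0.24, SE 0.08, adjusted p = 0.0428). This was the least firm of the calls. It was lost under 9 of 11 alternatives that kept all samples, with adjusted p up to 0.693 on the TPM scale, where the log2 fold change was -0.045. It was also lost without Bet+HMD replicate 1 (0.141), 2 (0.159) or 3 (0.107) and without Con replicate 1 (0.0813) or 2 (0.0630).

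Htr2a stood at 4.41, 4.63 and 3.35 FPKM in Con. No Bet+HMD sample overlapped this range, but the log2 fold change of -0.34 (95% CI -0.61 to -0.06) had an adjusted p of 0.0544. It was called without Con replicate 3 (0.00617), under quantile normalization (0.0239) and among protein-coding genes only (0.0471). Htr2c stood at 8.93, 16.0 and 9.54 FPKM in Con, again with no overlap. Its log2 fold change of -0.53 (95% CI -1.01 to -0.06) had an adjusted p of 0.0739, and without Con replicate 2, the highest sample, it was -0.29 with an adjusted p of 0.0366. For Htr1b, Htr5a and Htr6 the log2 fold changes were 0.09 (95% CI -0.20 to 0.37), 0.19 (95% CI -0.09 to 0.47) and 0.06 (95% CI -0.29 to 0.40), with overlapping groups. Under quantile normalization Htr1b (-0.11) and Htr6 (-0.15) were negative, and Htr6 was also negative without Bet+HMD replicate 2 (-0.034) or Con replicate 3 (-0.035). Htr1f had an exact permutation p of 0.4.

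**Figure D3:**
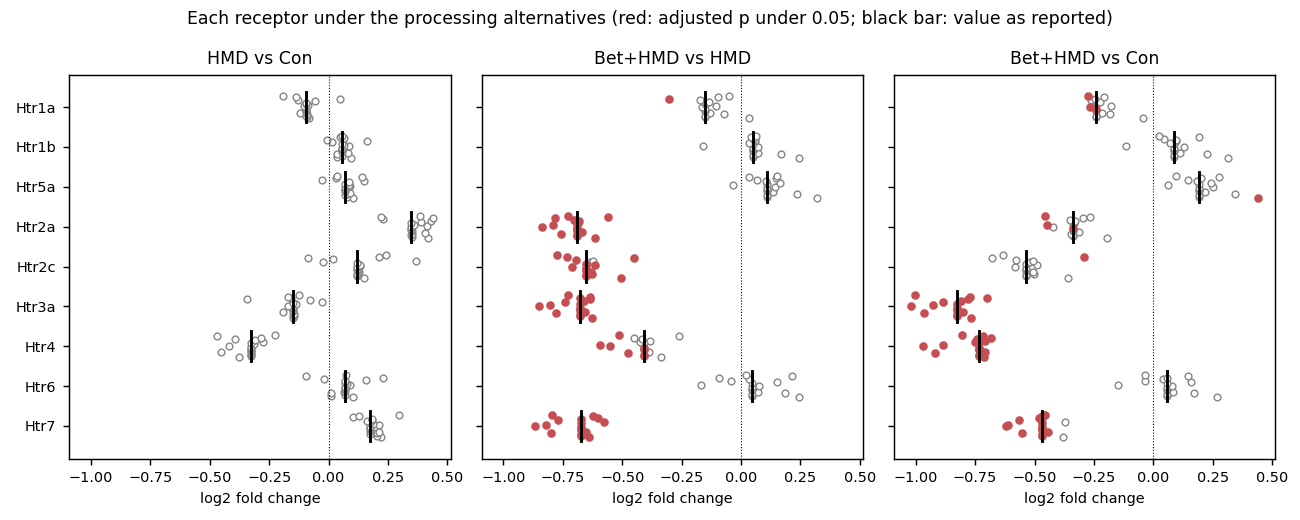
Log2 fold change of 9 receptors under every processing alternative, 1 point per alternative, in red where the adjusted p by limma was under 0.05, with a black bar for the value as reported. Htr2a, Htr3a and Htr7 are red throughout in Bet+HMD against HMD, and Htr3a and Htr4 are red throughout in Bet+HMD against Con, whereas the points of Htr1b and Htr6 fall on both sides of 0.

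The scale of the betaine libraries bears on these differences. Rescaling to TPM, where each library sums to the same total, shifted the all-gene median log2 fold change by 0.19 in Bet+HMD against HMD and by 0.21 in Bet+HMD against Con. Calls of higher expression made up 47.2% of all calls in Bet+HMD against HMD as reported and 69.5% on the TPM scale, and 48.8% and 73.5% in Bet+HMD against Con. With voom on recovered reads these shares were 57.9% and 59.7%. In both scales 6 of 9 receptors lay below the median of all genes in each of these comparisons. On the TPM scale Htr2a (-0.62), Htr2c (-0.51), Htr3a (-0.63) and Htr7 (-0.64) were still called lower in Bet+HMD against HMD, and Htr3a (-0.77) and Htr4 (-0.71) in Bet+HMD against Con.

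As a family, the 10 receptors summed to 45.1, 53.4 and 39.7 FPKM in Con, to 48.0, 49.8 and 44.2 FPKM in HMD and to 33.4, 34.0 and 34.9 FPKM in Bet+HMD. The betaine sums were below all others. As TPM, where all genes of a library sum to the same total, the receptors took 138 to 173 in Con, 153 to 170 in HMD and 129 to 140 in Bet+HMD, so on that scale betaine overlapped Con and not HMD.

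The make-up of the family differed as well. The Gi/o-coupled class took 34.5 ± 2.01% of the receptor sum in Con, 33.0 ± 5.38% in HMD and 43.7 ± 0.870% (SD, n = 3) in Bet+HMD. The lowest betaine sample (42.8%) was above the highest of the others (38.6%). Within this class Htr1a took 25.3 ± 0.489% in Bet+HMD and 20.9 ± 4.80% in HMD, with overlap, whereas Htr5a took 9.57 ± 0.629% in Bet+HMD and 6.27 ± 1.04% in HMD, without. The ion channel took 11.8 ± 2.41% in Con, 9.90% to 10.3% in HMD and 7.61 ± 0.971% in Bet+HMD. The Gq-coupled class took 30.5 ± 1.02% in Bet+HMD and 37.9 ± 5.30% in HMD, and the Gs-coupled class took 18.1 ± 2.08% and 19.1 ± 2.61%. Shares of 1 sum are not independent of each other, and no test was made on them.

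**Figure D4:**
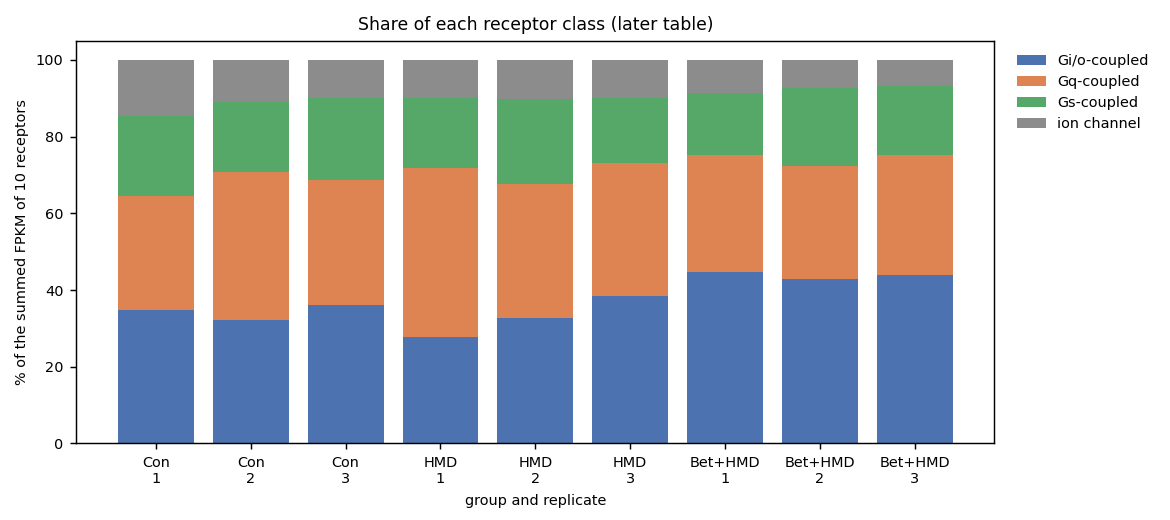
Share of the summed FPKM of the 10 receptors taken by each class, in percent, with 1 bar per sample of the later table. The Gi/o-coupled share is 42.8% to 44.6% in the 3 Bet+HMD samples and 27.8% to 38.6% in the 6 others.

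The spread among replicates was compared by the coefficient of variation. Its median over the 9 receptors was 16.9% in Con, 19.4% in HMD and 6.16% in Bet+HMD. The medians over all 13464 genes above the filter were 15.2%, 12.9% and 6.67%. Not every receptor followed the median. Htr7 varied by 19.4% in Bet+HMD, 2.07% in Con and 17.4% in HMD. In Htr6 the betaine samples varied less than HMD but not less than Con. In Htr3a and Htr1b the betaine samples varied more than HMD (10.7% against 7.69%, and 3.01% against 2.34%).

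Of the other 4 serotonin receptor genes, only Htr5b passed the filter. Htr5b, which encodes a receptor in rodents and is a pseudogene in humans, averaged 3.41 ± 0.793 FPKM in Con, 3.13 ± 0.307 FPKM in HMD and 1.88 ± 0.189 FPKM in Bet+HMD. It fell by 39.9% against HMD (log2 fold change -0.52, adjusted p = 0.00551) and by 44.9% against Con (log2 fold change -0.60, adjusted p = 0.0197). Htr5a, its closest relative in name, was not called lower in either comparison. Htr2b had 8, 15 and 8 reads in Bet+HMD and 0 to 4 reads in the other libraries of the later table, too few for a fold change. Htr1d had 1 to 10 reads in every library.

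Of the 9 genes that make, carry or break down serotonin, 5 passed the filter. The neurons that make serotonin lie outside the hippocampus. Tph2, the rate-limiting enzyme of synthesis in the brain, averaged 0.751 FPKM in Con, 0.490 FPKM in HMD and 0.536 FPKM in Bet+HMD, below the filter. Slc6a4, the serotonin transporter, was at most 0.0732 FPKM in any sample of the later table. Maob, a monoamine oxidase, fell in Bet+HMD against HMD (log2 fold change -0.44, adjusted p = 0.00948) and against Con (-0.37, adjusted p = 0.0410). Maoa, the monoamine oxidase that prefers serotonin, had -0.30 (adjusted p = 0.0503) and -0.26 (adjusted p = 0.0675), neither past the threshold. Ddc, which decarboxylates the precursor to serotonin, fell against HMD (-0.59, adjusted p = 0.00566). It averaged 1.81 ± 0.637 FPKM in Con, 2.64 ± 0.195 FPKM in HMD and 1.43 ± 0.269 FPKM in Bet+HMD. HMD, the highest of the 3 groups, was not called against Con for Ddc (limma adjusted p = 0.980). Slc29a4, a low-affinity monoamine transporter, fell in Bet+HMD against Con (-0.29, adjusted p = 0.0374).

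Signalling genes and binding partners of the receptors, together with handling genes and the other receptor genes, made up 58 genes, of which 49 were tested. In HMD against Con 0 of 49 were called and 3 had an unadjusted p under 0.05, beside 0.0% and 4.56% of all genes. In Bet+HMD against HMD 22 were called, 6 higher and 16 lower, with a median log2 fold change of -0.15, where 48.3% of all genes were called. In Bet+HMD against Con 19 were called, 6 higher and 13 lower, with a median of -0.11, where 39.7% of all genes were called. These counts lie near the share over all genes. On the TPM scale the calls turned mostly to higher, with 15 of 20 and 13 of 16. Higher calls were 12 of 21 and 12 of 14 under quantile normalization and 11 of 26 and 9 of 17 with voom. The second count was 6, 7 and 8 without Bet+HMD replicates 1, 2 and 3, 11 without Con replicate 1, and 9 with the replicate block.

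The counts of each class stand beside 48.3% of all genes called against HMD, 25.5% lower and 22.8% higher, and 39.7% called against Con. By class, the Gi list had 5 of 10 called against HMD. Gnai1 (-0.81, adjusted p = 0.00201) and Gnai3 (-0.48, adjusted p = 0.00518), both alpha subunits of Gi, fell, and Kcnj9, a subunit of the potassium channels that Gi-coupled receptors open, rose (0.90, adjusted p = 0.00595), all as log2 fold changes. Against Con the Gi list had 4 of 10 called, among them Gnai1 (-0.72) and Gnai3 (-0.49). The Gq list had 2 of 9 called against HMD, among them Gna11 (-0.41), an alpha subunit of the Gq family. Against Con its calls were Gna11 (-0.47) and Plcb4, a phospholipase C, which was higher (0.62). The Gs list had 5 of 14 called against HMD, all lower, led by the adenylyl cyclase Adcy5 (-0.52) and the alpha subunit Gnal (-0.34). Against Con it had 4 of 14, with Adcy5 (-0.46) and Adcy9 (-0.36) lower and Rapgef3, a cyclic AMP sensor, higher (0.40).

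In the partner list 5 were higher and 2 lower of 10 against HMD, beside 22.8% and 25.5% of all genes, and 4 were higher and 2 lower against Con, beside 19.4% and 20.4%. Cc2d1a, known as a repressor of the Htr1a gene, rose (0.78 against HMD, adjusted p = 0.00550, and 0.60 against Con, adjusted p = 0.0285). Arrb2, a beta-arrestin that takes activated receptors out of signalling, rose (0.66 and 0.75, adjusted p = 0.0103 and 0.0102). Deaf1, another regulator of Htr1a, fell (-0.35 and -0.27, adjusted p = 0.00688 and 0.0442). Ric3, a chaperone of Htr3a channels, fell (-0.36 and -0.26, adjusted p = 0.00746 and 0.0324). Adar, which edits Htr2c mRNA, was picked after its values were seen, and it rose by 0.51 and 0.41 (adjusted p = 0.000761 and 0.0147). Adarb1, the other adenosine deaminase gene of the list, averaged 15.5 ± 0.959 FPKM in Con, 19.7 ± 5.31 FPKM in HMD and 17.0 ± 0.570 FPKM in Bet+HMD. Its mean was thus lower against HMD and higher against Con. Editing itself was not measured.

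The 2 genes nearest to each receptor in profile were found among 13464 genes over the 9 samples of the later table, by the root mean square difference of centred log2(FPKM + 1) values. For Htr4 they were Arhgap15 (0.0536) and Ppp1r3c (0.0754), against a spread of Htr4 itself of 0.331. For Htr2a they were Fam117b (0.0747) and Ifrd1 (0.0789), for Htr7 Oprl1 (0.0895), the nociceptin receptor, and Arrdc4 (0.111), and for Htr3a Ly6e (0.101) and Dr1 (0.112). Htr2c had the largest differences, with Lhfpl3 (0.126) and Hfe (0.130), against a spread of Htr2c itself of 0.387. Such differences grow with the spread of a gene, so they do not rank receptors by how closely they were matched. For Htr1a they were Arhgap12 (0.0516) and Taf5 (0.0608), for Htr1b Prkar2b (0.0255) and Ift46 (0.0440), for Htr5a Wdr54 (0.0594) and Fchsd2 (0.0595), and for Htr6 Zfp955a (0.0862) and Sox17 (0.0882).

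Htr2c is strong in the choroid plexus, thalamus and habenula, which border the hippocampus, so markers of these structures are given beside it. Ttr, the most abundant choroid plexus marker, was 754, 2515 and 3146 FPKM in Con, 2518, 842 and 1896 FPKM in HMD and 1174, 1153 and 904 FPKM in Bet+HMD. Con replicate 3 had the highest Ttr and a low Htr2c, while Con replicate 2 and HMD replicate 1 were high in both. The 11 choroid plexus markers summed to 782 to 3247 FPKM in Con, 884 to 2606 FPKM in HMD and 957 to 1233 FPKM in Bet+HMD. By limma 0 of 11 were called in any comparison. Of all genes, 48.3% were called in Bet+HMD against HMD and 39.7% in Bet+HMD against Con. At an unadjusted p under 0.05 there was 1 of 11 in Bet+HMD against HMD. HMD replicate 1 stood apart in thalamus and habenula markers. Its Slc17a6 was 27.1 FPKM against at most 10.3 FPKM elsewhere, and its Gpr151 was 5.50 FPKM against at most 0.919 FPKM elsewhere. The 10 thalamus markers summed to 106 FPKM in that sample, to 40.4 and 50.7 FPKM in HMD replicates 2 and 3, and in Con to 20.3 to 31.0 FPKM and in Bet+HMD to 32.4 to 33.7 FPKM. All 3 HMD samples were thus above all Con and Bet+HMD samples. In HMD against Con 6 of 7 tested thalamus markers did not overlap, beside 9.37% of all genes. At an unadjusted p under 0.05 there were 5 of 7, beside 4.56%, with 0 called by limma. The 7 habenula markers summed to 33.5 FPKM in HMD replicate 1 and to 9.51 and 9.23 FPKM in HMD replicates 2 and 3. They summed to 7.07 to 8.85 FPKM in Con and to 10.2 to 11.7 FPKM in Bet+HMD, without overlap. In Bet+HMD against Con 2 of 3 tested habenula markers were called higher, beside 19.4% of all genes, and 1 had a lower mean. Against HMD 0 of 4 were called. Of the thalamus markers 3 of 7 tested were lower in Bet+HMD against HMD, beside 25.5% of all genes. In Bet+HMD against Con 2 of 6 were higher, beside 19.4%. Leaving out HMD replicate 1 does not remove the difference in thalamus markers, and the part of this tissue in the Htr2c result was not tested.

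**Figure D5:**
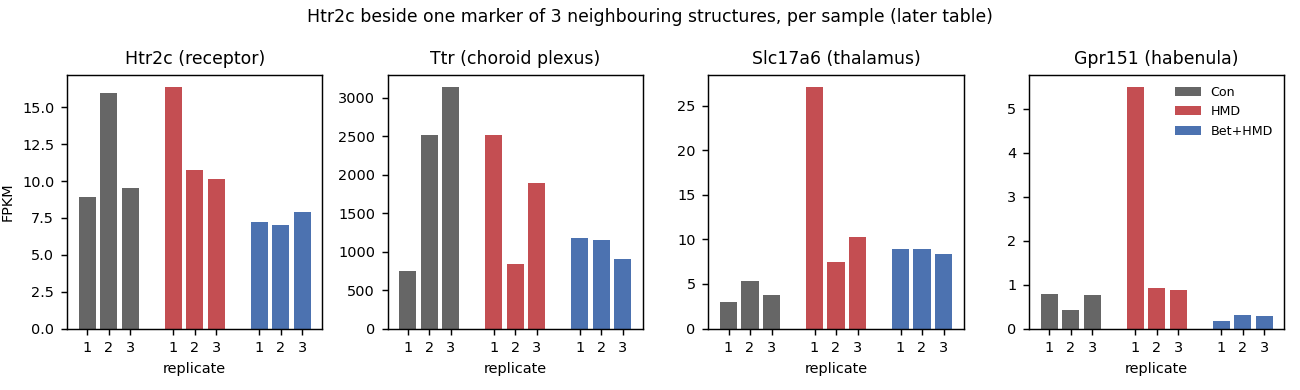
FPKM of Htr2c and of a marker each of choroid plexus (Ttr), thalamus (Slc17a6) and habenula (Gpr151) in the 9 samples of the later table, 1 bar per sample. HMD replicate 1 has the highest Htr2c, Slc17a6 and Gpr151, whereas the highest Ttr is in Con replicate 3.

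Interneuron markers are given beside Htr3a. The 12 markers summed to 471 to 547 FPKM in Con, 452 to 595 FPKM in HMD and 326 to 389 FPKM in Bet+HMD, and none was at 0. Against HMD 5 of 12 were lower, beside 25.5% of all genes, among them Calb2 (log2 fold change -1.44, adjusted p = 0.000293) and Slc32a1, the vesicular GABA transporter (-0.97, adjusted p = 0.000710). Against Con 3 of 12 were lower, Cck, Sst and Slc32a1, beside 20.4% of all genes, and Lamp5 was higher. Reln had log2 fold changes of 0.032 against HMD and 0.12 against Con, neither called. Sst, the most abundant of the list, fell against Con (-0.47, adjusted p = 0.0199). Of the 12 hippocampus markers 3 were lower and 0 higher against HMD, beside 25.5% and 22.8% of all genes. Against Con 2 were lower and 1 was higher, beside 20.4% and 19.4%. Spink8 and Fibcd1, both of CA1 pyramidal cells, were lower against HMD (-1.20 and -0.80) and against Con (-1.55 and -1.33). Wfs1 and Mpped1, also found in CA1, were not called, with log2 fold changes of -0.015 and 0.067 against HMD and 0.15 and -0.25 against Con. Rasgrp1, the most abundant, was lower against HMD (-0.37, adjusted p = 0.0233). In HMD against Con 4 of the 12 hippocampus markers did not overlap, beside 9.37% of all genes. At an unadjusted p under 0.05 by limma there were also 4, beside 4.56%, with 0 called. Means were higher in HMD for 6 of the 12 and lower for 6. The part of these cell types in the receptor results was not tested. The striatum markers, which would show tissue from further away, summed to 34.8 to 44.8 FPKM in Con, with Ppp1r1b the most abundant. Their sums were 41.1 to 59.2 FPKM in HMD and 43.0 to 44.0 FPKM in Bet+HMD. In HMD against Con 2 of 7 tested did not overlap, beside 9.37% of all genes, with 0 called. In Bet+HMD against HMD 1 of 7 was higher and 2 were lower, beside 22.8% and 25.5%. In Bet+HMD against Con 2 of 6 were higher, beside 19.4%. Blood markers, led by Hbb-bs, summed to 99.8 to 148 FPKM in Con, 149 to 233 FPKM in HMD and 72.2 to 122 FPKM in Bet+HMD.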

How the data were processed

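Hippocampal RNA of 9 mice in 3 groups was sequenced by the authors. The study's methods, which cover Con and HMD and do not mention betaine, describe ribosomal RNA depletion and stranded paired-end libraries. Whether the Bet+HMD libraries were made in the same way is not stated there. The authors deposited FPKM per gene in 2 tables, with the gene length in bases. The submitters' processing notes name HISAT2 2.1.0, featureCounts 1.5.0-p3 and mm10, and the study's methods name other versions. Multiplying FPKM by gene length and library size gave whole reads (tolerance 0.02) for 100% of values. The size the authors divided by was 0.953 to 1.05 times the summed reads, and the number of per-sample columns not used was 0. In the later table this ratio was 1.042 to 1.049 in Bet+HMD, 0.953 to 1.026 in Con and 0.956 to 1.005 in HMD. A larger divisor gives lower FPKM.

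The columns headed COL were read as Con, which is inferred. The study called genes with a count tool, and as the deposited unit is FPKM, limma 3.58.1 (R 4.3.3, empirical Bayes with trend) modelled log2(FPKM + 1) with only the compared groups in each fit, for genes with a mean of at least 1 FPKM, and tested on simulated data. This scale understates changes of low genes. Adjusted p-values are Benjamini-Hochberg over all genes tested, two-sided, with a threshold of 0.05. CI is the 95% confidence interval. HMD against Con used the earlier table, and the others used the later table, which alone holds Bet+HMD. FPKM of the receptors differed by -7.88% to 6.92% between tables for the same sample. Permutation tests used scipy 1.17.1.

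Named genes were the receptors, the other 4 receptor genes, the called pathway genes with the 2 largest rises and falls per list, Tph2, Slc6a4, Maoa and Maob, 2 nearest profiles per receptor, and the most abundant markers, and 1 gene that this rule names is not reported here. The members and lists were chosen with earlier results of these data known. Reads carried no molecular identifiers, so read counts are not counts of independent molecules. Alternatives were a pseudocount of 0.1, no filter, a filter at a mean of 10 reads, TPM, quantile normalization, median centring, no trend, all groups in 1 fit, protein-coding genes, voom on recovered reads, a replicate block, leaving out each sample, and HMD against Con in the later table.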

Additional observations from a re-analysis of the deposited data

How the results depend on the processing

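In HMD against Con, 0 receptors and 0 of the pathway genes were called under 12 alternatives and 6 that leave out a sample. Signs turned only with a sample left out, when log2 fold changes ran from -0.19 to 0.047 for Htr1a, -0.0065 to 0.16 for Htr1b, -0.087 to 0.37 for Htr2c, -0.029 to 0.15 for Htr5a and -0.096 to 0.23 for Htr6. The samples whose removal turned them were HMD replicate 1 for Htr1a and Htr2c, Con replicate 1 for Htr2c, Con replicate 3 for Htr1b, Htr5a and Htr6, and HMD replicate 2 for Htr6. In Bet+HMD against HMD the receptor count was 4 to 5 under 11 alternatives and 3 to 5 with a sample left out. Signs turned for Htr1a on the TPM scale (0.032), for Htr1b (-0.16), Htr5a (-0.034) and Htr6 (-0.17) under quantile normalization, and for Htr6 with a sample left out (-0.091 to 0.21). In Bet+HMD against Con the receptor count was 3 to 5 and 2 to 5, and the pathway count 9 to 19 and 6 to 23. Signs turned for Htr1b (-0.11) and Htr6 (-0.15) under quantile normalization and for Htr6 with a sample left out (-0.035 to 0.16). The cause was not tested.

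The replicate block gave 9 pathway genes called in Bet+HMD against Con, where 19 were called without it, and 4 and 3 receptors in the 2 betaine comparisons. The numbers mark different animals. The mean correlation of same-numbered deviations was 0.203 in HMD against Con, where 4 of 6 samples correlated best with their own number, -0.0786 (1 of 6) in Bet+HMD against HMD and -0.105 (0 of 6) in Bet+HMD against Con, so they were not taken as pairs.

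With 3 samples a group and 27 to 56 reads for Htr1f, small changes of the low receptors could not be seen. The Bet+HMD libraries and the betaine treatment cannot be told apart.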
